A study of Mus musculus with 6 samples.

Results

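The genes described here are 10 regulators and markers of spermatogonial stem cells, measured in whole testes of newborn mice that lack Sin3a in their germ cells. They are the zinc finger factors Zbtb16 and Sall4, the helix-loop-helix inhibitor Id4, the forkhead factor Foxo1, the growth factor targets Etv5 and Bcl6b, the differentiation factors Sohlh1 and Sohlh2, and the markers Tspan8 and Elmo1. They were found by the gene name on the array and are 10 of 35072 distinct names there. They have 13 of the 55681 distinct non-control probes: 3 for Sall4, 2 for Foxo1 and 1 for each other gene. A gene was tested if a probe of it lay well above background in both animals of 1 group or more, and all 10 met that.

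The testes came from male mice of the FVB.129/Sv mixed strain at postnatal day 0, with 2 animals and 2 arrays per group. VSKO mice were Vasa-cre;Sin3a deleted/floxed, so that their germ cells keep no working copy of Sin3a. HEMI mice were Vasa-cre;Sin3a deleted/+ and have 1 working copy. WT mice were Vasa-cre;Sin3a +/+, so the Cre transgene, driven by the promoter of Ddx4, a germ cell gene with the older name Vasa, was shared by all 3 groups. The VSKO and HEMI genotypes both carry a deleted allele whose loss outside the germ cells the labels for these mice do not settle.

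In the newborn mouse testis the male germ cells are gonocytes, which lie inside cords of Sertoli cells and soon turn into the first spermatogonial stem cells. Zbtb16, Sall4, Id4 and Foxo1 act inside these cells to keep them undifferentiated, Etv5 and Bcl6b are switched on in them by GDNF from Sertoli cells and by FGF2, and Sohlh1 and Sohlh2 drive the opposite step into differentiation. SIN3A is the scaffold of a histone deacetylase complex that represses transcription. Whole testes hold Sertoli, Leydig, interstitial and vessel cells beside the germ cells, so a lower signal from fewer germ cells and a lower signal from less RNA per germ cell cannot be told apart here.

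The probes are 60 bases long, and where a gene has several they read different parts of its message, which mattered for Sall4. The first Sall4 probe below lies at chr2:168580437-168580496 (mm9, minus strand), in a part that RefSeq variant a alone contains among the RefSeq messages the array lists. The second lies at chr2:168578172-168578231 (minus strand) and is listed for all 3 RefSeq messages of the gene. The Foxo1 probe lies at chr3:52150183-52150242 (plus strand). All 3 are shown because they read the coding part of the message, on background knowledge of these proteins, while the other Sall4 and Foxo1 probes read further toward the 3′ end. The sequences are those of the deposited array files, written 5′ to 3′.
Sall4, variant a: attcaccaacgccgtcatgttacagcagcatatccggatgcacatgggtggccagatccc
Sall4, shared coding: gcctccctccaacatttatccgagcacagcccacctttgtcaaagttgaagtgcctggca
Foxo1, coding: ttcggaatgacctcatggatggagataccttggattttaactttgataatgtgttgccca

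The third Sall4 probe lies at chr2:168574333-168574392 and starts at base 4512 of its message, against base 2666 for the shared coding probe. It had the highest mean signal of the 3, and by that rule it stands for the gene in the fit. The second Foxo1 probe lies at chr3:52153289-52153348 and starts at base 4809, against base 2308 for the coding probe. For the remaining genes the probes lie at chr9:48462419-48462478 (Zbtb16), chr13:48358668-48358727 (Id4), chr16:22381387-22381446 (Etv5), chr11:70037864-70037923 (Bcl6b), chr2:25698525-25698584 (Sohlh1), chr3:55013524-55013583 (Sohlh2) and chr10:115286563-115286622 (Tspan8), all mm9. The Elmo1 probe spans chr13:20681555-20692067, since it crosses an exon junction. Exon and UTR borders on this build were not used here.

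Levels are log2 signals relative to the 75th percentile of each array, which itself stands at 0. Levels of different probes are not compared, since probes differ in brightness. Each array had 59.2% to 64.5% of its non-control spots well above background and 0 saturated spots, and the 2 VSKO animals correlated across genes at r = 0.987 (Pearson), the HEMI animals at 0.989 and the WT animals at 0.992. Of the markers tested, 16 of 16 general germ cell genes and 10 of 10 Sertoli cell genes were well above background on all 6 arrays. So were 7 of 7 macrophage and 6 of 6 skeletal muscle markers, so being above background does not check the tissue label. All arrays lay on 1 slide, with VSKO and HEMI in row 1 and WT in row 2, so row and genotype cannot be told apart in any comparison with WT. HEMI alone lay in columns 3 and 4, while VSKO and WT lay in columns 1 and 2. Column and genotype therefore cannot be told apart in any comparison with HEMI. The probe for Sin3a, the targeted gene, read 0.61 and 0.38 in VSKO, 0.89 and 0.89 in HEMI, and 1.09 and 1.11 in WT. It stood at -0.60 ± 0.13 (SE) for VSKO minus WT, with an adjusted p of 0.134 in the limma fit. The labels do not say which exons the deletion removes, so the probe may lie outside them and then checks nothing.

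No gene of the 10 passed an adjusted p of 0.05 (limma, Benjamini-Hochberg over 24567 genes) in any comparison. Between VSKO and WT, 2 genes stood higher (Id4 and Bcl6b) and 3 lower (Tspan8, Sall4 and Zbtb16) at an unadjusted p under 0.05, while 14.7% of all genes tested reached that level (7.23% higher and 7.51% lower) and 0.977% passed after adjustment (0.346% higher and 0.631% lower). Between HEMI and WT, Zbtb16 stood higher and Tspan8 lower at that level, against 12.4% of all genes unadjusted (4.76% higher and 7.68% lower) and 0.118% adjusted (0.0326% higher and 0.0855% lower). Between VSKO and HEMI, Id4 stood higher and Zbtb16 and Sall4 lower, against 7.69% of all genes unadjusted (4.43% higher and 3.26% lower) and 0.142% adjusted (0.102% higher and 0.0407% lower). The first 2 comparisons share the WT arrays, and the last uses the arrays of both tested genotypes, so they are not independent of each other.

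The signs were mixed in each comparison. Between VSKO and WT the differences ran from -1.44 (Tspan8) to 0.64 (Id4), with a median of -0.0014 against -0.0088 for all genes tested, and a median size of 0.36 regardless of sign against 0.19 for all genes. For HEMI against WT the median was 0.099 against -0.024 for all genes, with a median size of 0.20 against 0.19. For VSKO against HEMI it was 0.015 against 0.024, with a median size of 0.19 against 0.13. The animals of the compared groups did not overlap for 6 of the 10 genes between VSKO and WT, 2 higher and 4 lower in VSKO, as for 45.7% of all genes (22.3% higher and 23.4% lower). Between HEMI and WT they did not overlap for 6 of 10, 2 higher and 4 lower in HEMI, as for 49.3% of all genes (20.9% higher and 28.4% lower). Between VSKO and HEMI it was 3 of 10, 1 higher and 2 lower in VSKO, as for 32.9% of all genes (18.8% higher and 14.1% lower).

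**Figure D1:**
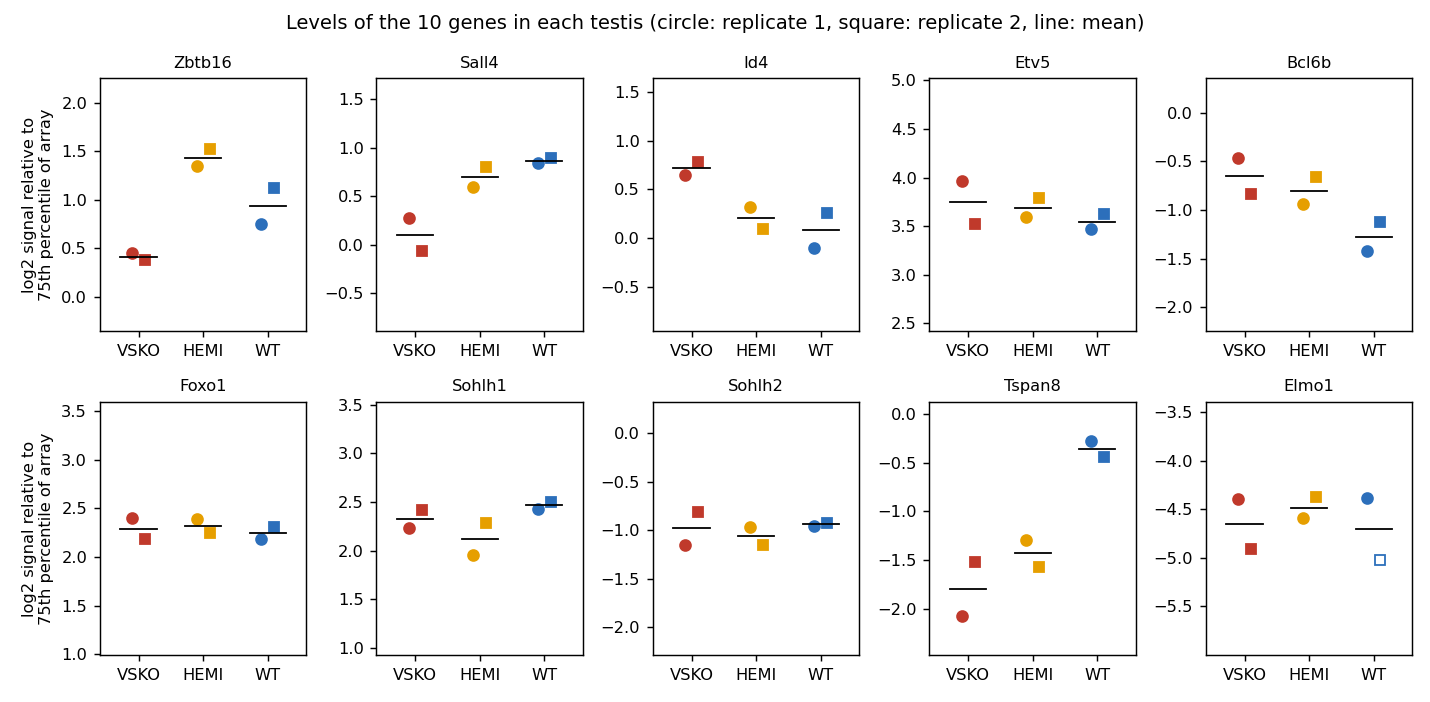
Level of each of the 10 genes (vertical axis, log2 signal relative to the 75th percentile of the array) in the VSKO, HEMI and WT testes, with 1 point per animal and a line at the group mean. All panels span the same number of log2 units, and an open symbol marks a probe not well above background; Tspan8 lies lower in all 4 VSKO and HEMI testes than in the WT testes, and Zbtb16 lies highest in the HEMI testes.

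**Figure D2:**
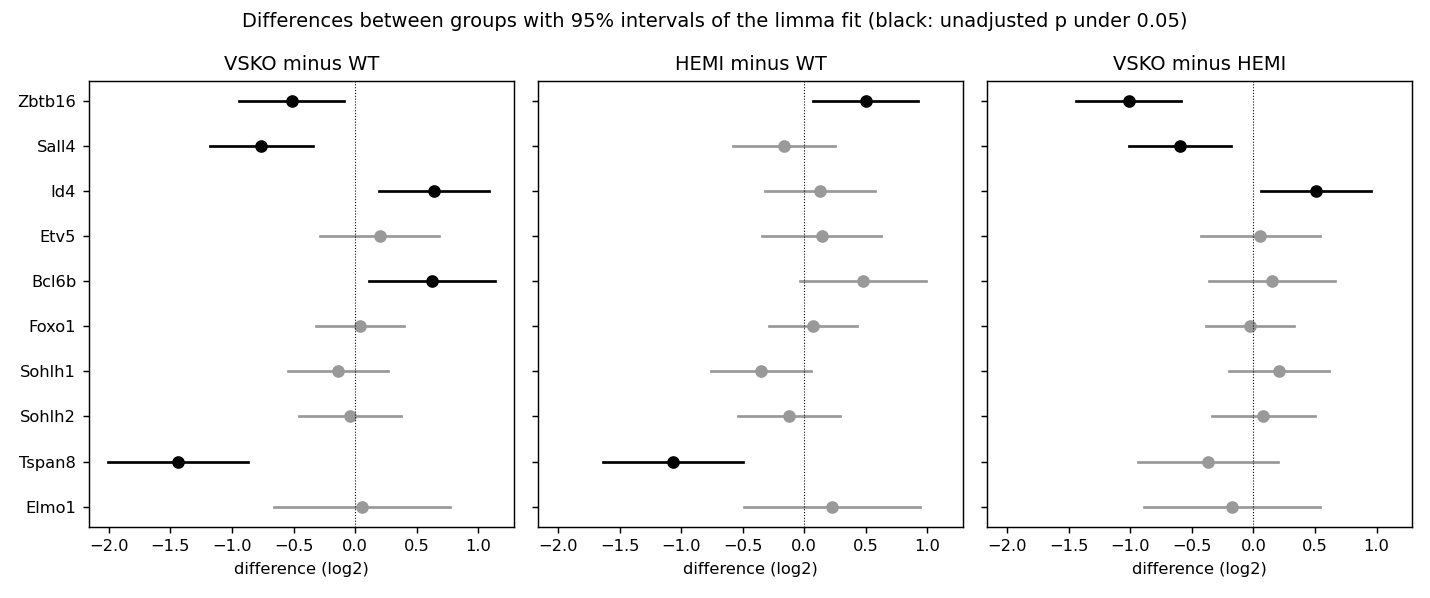
Difference between group means of the 10 genes (horizontal axis, log2) with its 95% interval from the limma fit, for VSKO minus WT, HEMI minus WT and VSKO minus HEMI. Black marks an unadjusted p under 0.05, and no gene passed the adjusted threshold; the interval of Zbtb16 lies below 0 for VSKO minus HEMI and above 0 for HEMI minus WT.

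Zbtb16, also called Plzf, is a BTB and zinc finger repressor that spermatogonial stem cells need to renew themselves. It read 0.45 and 0.38 in the VSKO testes, 1.34 and 1.52 in the HEMI testes, and 0.75 and 1.12 in the WT testes. No group overlapped another: both HEMI animals were the highest and both VSKO animals the lowest. The VSKO testes lay 1.01 ± 0.17 (SE) below the HEMI testes on the log2 scale, which is 2.02-fold lower (95% interval of VSKO minus HEMI -1.44 to -0.59, unadjusted p = 0.00153, adjusted p = 0.149). VSKO minus WT was -0.52 ± 0.17 (adjusted p = 0.261), and HEMI minus WT was 0.50 ± 0.17 (adjusted p = 0.341). Its level in HEMI stood 0.76 ± 0.15 above the midpoint of the VSKO and WT means (95% interval 0.39 to 1.13, unadjusted p = 0.00305, adjusted p = 0.244). It was the only gene of the 10 off that midpoint at an unadjusted p under 0.05, a level that 8.91% of all genes reached (3.16% higher and 5.75% lower), and 0.0326% of all genes passed after adjustment (0.0163% higher and 0.0163% lower).

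By group means, Zbtb16 ran from HEMI through WT to VSKO, which is not the order of the number of working Sin3a copies. Its probe lies on the same chromosome as the Sin3a probe (chr9:56975655-56975714). When the arrays were scaled to the mean of the general germ cell genes in place of the 75th percentile, VSKO minus WT became -0.071 (adjusted p = 0.743), while HEMI minus WT became 0.95 (adjusted p = 0.0886).

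Sall4, a zinc finger factor that is high in gonocytes and undifferentiated spermatogonia and binds ZBTB16, read 0.27 and -0.068 in VSKO, 0.60 and 0.80 in HEMI, and 0.84 and 0.89 in WT by its 3′ probe. Both VSKO animals were below all others, and the HEMI and WT animals lay close together without overlapping. Sall4 stood 0.76 lower in VSKO than in WT (VSKO minus WT -0.76 ± 0.16, SE), or 1.69-fold lower (95% interval -1.18 to -0.34, unadjusted p = 0.00501, adjusted p = 0.134). VSKO minus HEMI was -0.59 ± 0.16 (adjusted p = 0.383) and HEMI minus WT -0.17 ± 0.16 (95% interval -0.58 to 0.25, adjusted p = 0.710). With the arrays scaled to the mean of the general germ cell genes, VSKO minus WT by this probe became -0.31 and HEMI minus WT 0.28.

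The other Sall4 probes gave a different picture. The shared coding probe, the second sequence shown above, read -0.22 and -0.15 in VSKO, -0.18 and -0.29 in HEMI, and 0.23 and 0.061 in WT. By this probe VSKO and HEMI overlapped and both lay below WT, with VSKO minus WT at -0.33 ± 0.13 (adjusted p over all probes 0.347), HEMI minus WT at -0.38 ± 0.13 (adjusted p = 0.355) and VSKO minus HEMI at 0.052 ± 0.13. The variant a probe was dim, at -4.75 and -5.59 in VSKO, -4.75 and -3.95 in HEMI, and -4.89 and -4.27 in WT, and was not well above background in VSKO replicate 2. WT overlapped both other groups by this probe, and both VSKO values lay below both HEMI values, 1 only just (-4.754 against -4.748). VSKO minus WT was -0.60 ± 0.42 and VSKO minus HEMI -0.83 ± 0.42.

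Within each array the 3′ probe stood above the shared coding probe by 0.49 and 0.084 in VSKO, 0.78 and 1.09 in HEMI, and 0.61 and 0.83 in WT. Both VSKO values were the lowest, and the difference of this ratio was -0.43 for VSKO minus WT and -0.65 for VSKO minus HEMI. An exact permutation test over the animals gave a two-sided p of 0.333 for each, which is the smallest that 2 against 2 allows. The 3′ and the shared coding probe both put the VSKO animals below the WT animals, but whether HEMI lies nearer to WT or to VSKO depended on which of them was read.

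**Figure D3:**
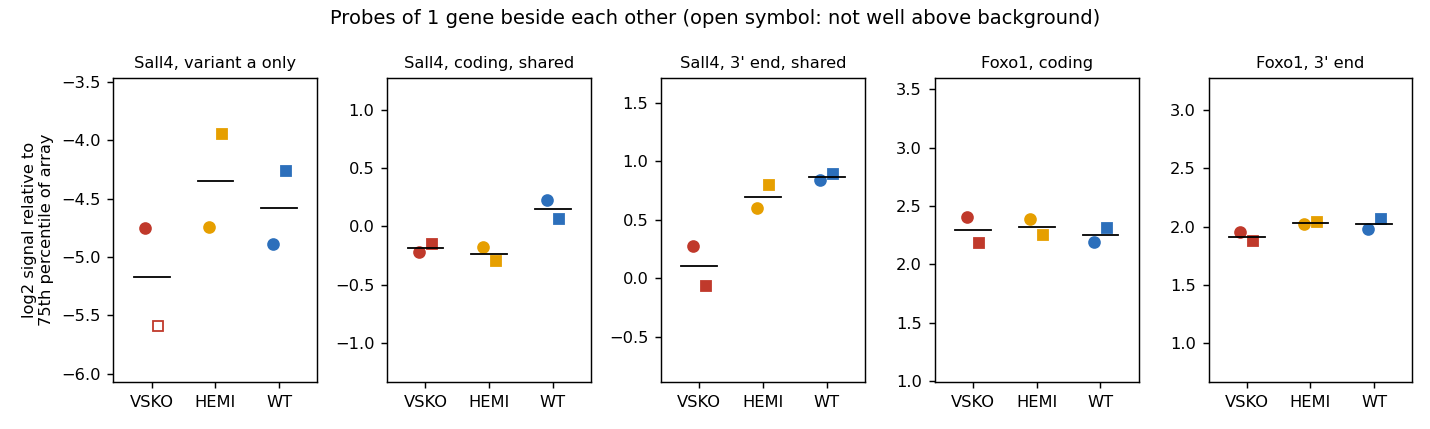
Levels of the 3 Sall4 probes and the 2 Foxo1 probes (vertical axis, log2 signal relative to the 75th percentile of the array) in VSKO, HEMI and WT testes, with 1 point per animal and a line at the group mean. An open symbol marks a probe not well above background; the shared coding probe of Sall4 puts HEMI with VSKO, and the 3′ probe puts HEMI near WT.

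Id4, a helix-loop-helix protein without a DNA-binding region that marks the spermatogonia richest in stem cell activity, read 0.65 and 0.79 in VSKO, 0.32 and 0.094 in HEMI, and -0.10 and 0.26 in WT. Both VSKO animals were above all others, and the HEMI and WT animals overlapped. For Id4, VSKO minus WT was 0.64 ± 0.18 (SE), or 1.56-fold higher (95% interval 0.19 to 1.09, unadjusted p = 0.0138, adjusted p = 0.203). VSKO minus HEMI was 0.51 ± 0.18 (adjusted p = 0.545), and HEMI minus WT 0.13 ± 0.18 (95% interval -0.32 to 0.58). The sign for VSKO was thus opposite to that of Zbtb16 and Sall4.

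Foxo1, a forkhead factor that enters the nucleus as gonocytes become stem cells, read 2.40 and 2.18 in VSKO, 2.39 and 2.25 in HEMI, and 2.19 and 2.31 in WT by its coding probe. The groups overlapped, and the group means lay within 0.068 of each other, the narrowest range of the 10 genes. For this probe VSKO minus WT was 0.041 ± 0.14 (95% interval -0.32 to 0.40, adjusted p = 0.921). The 3′ probe read 1.96 and 1.88 in VSKO, 2.03 and 2.04 in HEMI, and 1.99 and 2.07 in WT, with VSKO minus WT at -0.11 ± 0.12 (adjusted p = 0.719). Neither probe passed in any comparison, and the intervals of the coding probe leave room for differences of up to 0.42 in size.

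Etv5, an ETS family factor that GDNF and FGF2 induce in spermatogonia and that Sertoli cells also make, read 3.97 and 3.52 in VSKO, 3.59 and 3.79 in HEMI, and 3.47 and 3.63 in WT. The groups overlapped, and the animals of VSKO lay 0.44 apart, wider than any difference between group means. The difference of VSKO minus WT was 0.20 ± 0.19 (SE, 95% interval -0.29 to 0.68, adjusted p = 0.682). HEMI minus WT was 0.14 ± 0.19 (95% interval -0.34 to 0.63).

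Bcl6b, a BTB and zinc finger repressor that GDNF induces in cultured stem cells, read -0.47 and -0.84 in VSKO, -0.94 and -0.66 in HEMI, and -1.43 and -1.12 in WT. The VSKO and HEMI animals overlapped, and all 4 lay above both WT animals. VSKO minus WT was 0.62 ± 0.20, or 1.54-fold higher (95% interval 0.11 to 1.13, unadjusted p = 0.0256, adjusted p = 0.259). HEMI minus WT was 0.47 ± 0.20 (95% interval -0.037 to 0.99, adjusted p = 0.431) and VSKO minus HEMI 0.15 ± 0.20 (95% interval -0.36 to 0.66). The endothelium also makes BCL6B, and the summed linear level of 8 endothelial markers ran from 20.6 to 21.1 in VSKO, 20.0 to 21.5 in HEMI and 24.2 to 24.3 in WT. All 8 were well above background on all 6 arrays. By the probe used for each, 4 were positive and 4 negative for VSKO minus WT, from -0.46 (Flt1) to 0.29 (Tie1). None of these reached an unadjusted p under 0.05. Another Flt1 probe gave -0.95 ± 0.21 (limma, adjusted p over all probes 0.152), and another Kdr probe -0.31 ± 0.21. The part of the endothelial markers in the Bcl6b difference was not tested.

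Sohlh1 and Sohlh2 are helix-loop-helix factors of the germ line that together start spermatogonial differentiation. Sohlh1 read 2.23 and 2.42 in VSKO, 1.95 and 2.28 in HEMI, and 2.43 and 2.50 in WT. All VSKO and HEMI values lay below both WT values, VSKO replicate 2 only just. HEMI minus WT was -0.35 ± 0.16 (SE, 95% interval -0.76 to 0.057, adjusted p = 0.462) and VSKO minus WT -0.14 ± 0.16 (95% interval -0.55 to 0.27, adjusted p = 0.734).

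Sohlh2 read -1.16 and -0.81 in VSKO, -0.97 and -1.16 in HEMI, and -0.95 and -0.92 in WT. VSKO overlapped both other groups, and HEMI lay below WT by 0.12 ± 0.16 (95% interval of HEMI minus WT -0.54 to 0.29). VSKO minus WT was -0.044 ± 0.16 (95% interval -0.46 to 0.37, adjusted p = 0.928). With the arrays scaled to the general germ cell genes, VSKO minus WT turned to 0.31 for Sohlh1 and 0.40 for Sohlh2, neither passing.

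Tspan8, a tetraspanin of the cell surface found on spermatogonia rich in stem cells after birth, had the widest range of the 10. It read -2.07 and -1.52 in VSKO, -1.29 and -1.57 in HEMI, and -0.28 and -0.44 in WT. All 4 VSKO and HEMI animals lay well below both WT animals, and VSKO and HEMI overlapped. For Tspan8, VSKO minus WT was -1.44 ± 0.22 (SE), or 2.71-fold lower (95% interval -2.01 to -0.87, unadjusted p = 0.00114, adjusted p = 0.0705), with 1.62% of all genes at an equal or smaller p.

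HEMI minus WT was -1.07 ± 0.22 for Tspan8, or 2.10-fold lower (95% interval -1.64 to -0.50, unadjusted p = 0.00443, adjusted p = 0.176). VSKO minus HEMI was -0.37 ± 0.22 (95% interval -0.94 to 0.20, adjusted p = 0.918). The VSKO minus WT difference passed under normexp background correction (-1.23, adjusted p = 0.0300), scaling to the array median (-1.47, adjusted p = 0.0412) and intensity trend with robust moderation (-1.44, adjusted p = 0.0307). It did not pass under the other 14 alternatives, and ran from -1.71 to -0.99 over all 17 (adjusted p = 0.0300 to 0.273). Fetal Leydig cell markers, 7 in number and all well above background on all 6 arrays, were summed on the linear scale. The sum ran from 137 to 139 in VSKO, 121 to 146 in HEMI and 188 to 221 in WT. For VSKO minus WT 5 were negative and 2 positive, from -1.83 (Star) to 0.048 (Nr5a1), the other positive being Hsd3b1 (0.032). The median was -0.89 against -0.0088 for all genes. At an unadjusted p under 0.05, 0 stood higher and 5 lower, against 7.23% and 7.51% of all genes, and 1 fell (Cyp17a1). All 7 were negative for HEMI minus WT, with a median of -0.87 against -0.024. There 0 stood higher and 5 lower at that level, against 4.76% and 7.68% of all genes, and none passed. The part of these markers in the Tspan8 difference was not tested.

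Elmo1, an adaptor for engulfing dying cells that is not restricted to germ cells, gave a dim signal. It read -4.40 and -4.91 in VSKO, -4.59 and -4.37 in HEMI, and -4.39 and -5.02 in WT, where replicate 2 was not well above background. The groups overlapped throughout. Elmo1 had a VSKO minus WT difference of 0.052 ± 0.28 (SE, 95% interval -0.66 to 0.77), which leaves room for a difference of up to 0.77 in size at this brightness.

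Paralogues of Id4, Etv5, Foxo1, Sall4, Bcl6b and Elmo1 share their folds and were taken as a list. It held no tetraspanin beside Tspan8 and no close relative of Sohlh1 or Sohlh2. Of 13, all but Sall3 were tested, and 1 fell and none rose between VSKO and WT (1 higher and 1 lower at an unadjusted p under 0.05, against 7.23% and 7.51% of all genes). Between VSKO and HEMI 1 fell and none rose (1 higher and 2 lower unadjusted, against 4.43% and 3.26% of all genes). None passed between HEMI and WT (1 higher and 1 lower unadjusted, against 4.76% and 7.68%). Sall1, a relative of Sall4 known from kidney development, fell: it read -5.59 and -5.56 in VSKO, -3.86 and -3.85 in HEMI, and -3.59 and -3.80 in WT. Both VSKO animals were far below the rest, with VSKO minus WT at -1.88 ± 0.13 (adjusted p = 0.0217) and VSKO minus HEMI at -1.72 ± 0.13 (adjusted p = 0.0364). The probe was near background: in VSKO it was well above it on 1 of 2 arrays, so Sall1 was tested through the brighter HEMI and WT groups, and its difference rests in part on a signal not well above background. Both calls were lost when any 1 of the 6 arrays was left out (adjusted p = 0.0529 to 0.131 and 0.0932 to 0.183), with differences of -1.98 to -1.77 and -1.73 to -1.71, and with normexp background correction VSKO minus WT was -0.58 (adjusted p = 0.111).

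Etv4, the closest listed relative of Etv5 and also a GDNF target, read 2.09 and 2.17 in VSKO, 2.00 and 2.18 in HEMI, and 1.40 and 1.82 in WT, with VSKO minus WT at 0.52 ± 0.18 (adjusted p = 0.288) and HEMI minus WT at 0.47 ± 0.18 (adjusted p = 0.383). Like Bcl6b, it was higher in all 4 VSKO and HEMI animals than in both WT animals. Foxo3, a relative of Foxo1, read 0.28 and -0.13 in VSKO, -3.48 and -3.93 in HEMI, and -1.46 and 0.16 in WT by the probe used for the gene. HEMI minus WT was -3.06 ± 0.55 by that probe (adjusted p = 0.142), with the WT animals far apart, while the other Foxo3 probe gave 0.42.

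The remaining paralogues did not pass in any comparison. VSKO minus WT was 0.32 for Id1, -0.17 for Id2, -0.34 for Id3, 0.16 for Etv1, -0.35 for Foxo4, 0.046 for Sall2, -0.24 for Bcl6, 0.28 for Elmo2 and -0.29 for Elmo3. Like Id4, the other Id genes did not pass, and their errors were wide (SE 0.29 to 0.43).

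GDNF binds GFRA1 and RET on gonocytes and stem cells, and of 12 genes of GDNF and FGF2 signalling 11 were tested. Between VSKO and WT 1 of them rose and none fell (2 higher and 0 lower at an unadjusted p under 0.05, against 7.23% and 7.51% of all genes). None passed for HEMI against WT or for VSKO against HEMI, with 2 higher and 1 lower at an unadjusted p under 0.05 in each, against 4.76% and 7.68% of all genes for HEMI minus WT and 4.43% and 3.26% for VSKO minus HEMI. Lhx1, a homeobox gene that GDNF induces in cultured stem cells and that the mesonephric duct also makes, rose: it read -1.75 and -1.77 in VSKO, -1.41 and -1.56 in HEMI, and -3.15 and -2.86 in WT. Its VSKO minus WT difference was 1.25 ± 0.15 (adjusted p = 0.0430), and HEMI minus WT was 1.52 ± 0.15 (adjusted p = 0.0526), while its other probe gave 0.27 and 1.18. Without any 1 of the 6 arrays the Lhx1 call was lost (adjusted p = 0.0902 to 0.166), with differences of 1.101 to 1.39. The summed level of 9 mesonephric duct and rete markers, 7 of them well above background on all 6 arrays, ran from 24.0 to 40.7 in VSKO, 27.0 to 41.7 in HEMI and 25.1 to 29.0 in WT, and their part in the Lhx1 difference was not tested.

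Ret, the signalling receptor for GDNF, read -1.21 and -2.24 in VSKO, -0.44 and 0.29 in HEMI, and -1.46 and -1.0 in WT. Both HEMI animals were the highest, as for Zbtb16, with VSKO minus HEMI at -1.64 ± 0.43 (adjusted p = 0.351) and HEMI minus WT at 1.15 ± 0.43 (adjusted p = 0.376). Fgf8, a growth factor, had the opposite order: -0.98 and -1.31 in VSKO, -2.48 and -2.15 in HEMI, and -1.39 and -1.94 in WT, with VSKO minus HEMI at 1.17 ± 0.25 (adjusted p = 0.235). Gfra1, named after its values were seen because it pairs with Ret, stood at -0.11 ± 0.30 for VSKO minus WT (adjusted p = 0.901) and -0.67 ± 0.30 for VSKO minus HEMI (adjusted p = 0.744).

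Of 22 names listed for other genes of undifferentiated spermatogonia and gonocytes, 21 were found on the array and 19 were tested. Between VSKO and WT 1 fell and none rose (2 higher and 2 lower at an unadjusted p under 0.05, against 7.23% and 7.51% of all genes), with a median of -0.16 against -0.0088 for all genes. Nanos2, an RNA-binding protein that keeps male germ cells out of meiosis, fell, reading -6.48 and -5.61 in VSKO, -2.68 and -2.17 in HEMI, and -3.28 and -2.95 in WT. It was not well above background on either VSKO array, so it was tested through the brighter HEMI and WT groups. With the dim VSKO signals raised to a floor, VSKO was 5.96-fold lower than WT and 9.60-fold lower than HEMI. The limma fit to the signals as read gave adjusted p = 0.0423 and 0.0575, which do not test these folds. The folds apply to the main processing only, since normexp background correction gave a smaller difference from WT. Each fold sets the mean of the brighter group against, for each dim array, the higher of its lowest well-above-background signal and the signal of the probe itself. That lowest signal is not a detection limit, so the folds are not strict lower bounds. With normexp background correction VSKO minus WT was -0.98 (adjusted p = 0.0577), and the call was lost when any 1 of the 6 arrays was left out (adjusted p = 0.0747 to 0.175).

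None of these 19 passed for HEMI against WT, where 4 stood higher and 1 lower at an unadjusted p under 0.05 (4.76% and 7.68% of all genes did), or for VSKO against HEMI, where 1 stood higher and 4 lower (4.43% and 3.26% of all genes). Eomes, a T-box factor found in a subset of undifferentiated spermatogonia, read -2.16 and -2.35 in VSKO, -2.34 and -1.68 in HEMI, and -3.42 and -3.32 in WT, with VSKO minus WT at 1.12 ± 0.24 (adjusted p = 0.134) and HEMI minus WT at 1.36 ± 0.24 (adjusted p = 0.141). Utf1, a chromatin protein of undifferentiated spermatogonia, read 0.90 and 0.85 in VSKO, 0.11 and 0.093 in HEMI, and 0.94 and 0.85 in WT, so HEMI stood apart with HEMI minus WT at -0.79 ± 0.11 (adjusted p = 0.104).

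Against the midpoint of VSKO and WT, the HEMI level was higher for 5 of the 19 and lower for 1 at an unadjusted p under 0.05, against 3.16% and 5.75% of all genes, and none passed after adjustment. The 5 were Foxc2 (0.86), Eomes (0.80), Cdh1 (0.71), Lin28b (0.44) and Nanos2. No value is given for Nanos2, since its VSKO signal was not well above background and the midpoint rests on it. The place of Nanos2 among the 5 rests on that signal too. Cdh1 is named after its values were seen, and the 1 lower gene was Utf1 (-0.78). Zbtb16 stood at 0.76 in this contrast, Sall4 by its 3′ probe at 0.21 ± 0.14 (adjusted p = 0.783) and Id4 at -0.19 ± 0.15 (adjusted p = 0.818). The shared coding probe of Sall4 had the opposite sign, at -0.22 ± 0.11 (limma, adjusted p over all probes 0.706). Its dim variant a probe gave 0.53 ± 0.37 (adjusted p over all probes 0.796).

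Of 12 genes of spermatogonial differentiation none passed between VSKO and WT, with 1 higher and 4 lower at an unadjusted p under 0.05, against 7.23% and 7.51% of all genes. For HEMI against WT none passed and 0 stood higher and 6 lower at that level, against 4.76% and 7.68% of all genes. For VSKO against HEMI none passed and 1 stood higher and 1 lower, against 4.43% and 3.26%. Dmrtb1, which times the switch from mitosis to meiosis, had the largest negative difference at -1.50 ± 0.32 (adjusted p = 0.134), with HEMI minus WT at -1.18 ± 0.32 (adjusted p = 0.264). Sycp3, a protein of the meiotic chromosome axis, read 1.38 and 1.26 in VSKO, 0.11 and 0.26 in HEMI, and 0.56 and 0.74 in WT, with VSKO minus WT at 0.67 ± 0.14 (adjusted p = 0.121) and VSKO minus HEMI at 1.14 ± 0.14 (adjusted p = 0.0799). No group overlapped another for Sycp3, and the order was VSKO, WT, HEMI from high to low.

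General germ cell genes stand beside every value above, since all 10 genes were measured in whole testes. Of 16, none passed in any comparison, and between VSKO and WT 1 stood higher and 8 lower at an unadjusted p under 0.05 (7.23% and 7.51% of all genes did), with a median of -0.46 against -0.0088 for all genes. Rnf17, a Tudor protein of germ cells, had the largest negative difference at -1.42 ± 0.23 (adjusted p = 0.0776), and Tex19.1, a germ cell protein that restrains retrotransposons, the largest positive at 1.01 ± 0.17 (adjusted p = 0.0847). For HEMI against WT, 0 stood higher and 6 lower (4.76% and 7.68% of all genes), with a median of -0.27 against -0.024. For VSKO against HEMI, 2 stood higher and 3 lower (4.43% and 3.26%), with a median of -0.072 against 0.024. Dppa3, a maternal and germ cell factor, had the largest negative difference for HEMI minus WT at -1.70 ± 0.37 (adjusted p = 0.180), and Mov10l1, a helicase of the piRNA pathway, the largest negative one for VSKO minus HEMI at -0.78 ± 0.18 (adjusted p = 0.281). The mean log2 difference of the 16 was -0.45 for VSKO minus WT, -0.45 for HEMI minus WT and 0.0049 for VSKO minus HEMI.

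Their summed linear level, which the brightest of them dominate, ran from 68.7 to 70.0 in VSKO, 50.5 to 58.6 in HEMI and 57.8 to 66.5 in WT, an order unlike that of the mean log2 level. Ddx4, the gene whose promoter drives the Cre, differed by -0.24 ± 0.17 for VSKO minus WT (adjusted p = 0.570). Relative to the mean of these 16 genes, Id4 stood 1.09 higher in VSKO than in WT (adjusted p = 0.0626) and Bcl6b 1.07 higher (adjusted p = 0.0506), while Tspan8 kept a difference of -0.99 (adjusted p = 0.0863). Sertoli cell markers summed to 141 to 153 in VSKO, 137 to 158 in HEMI and 128 to 142 in WT, interstitial progenitor markers to 79.3 to 88.4 in VSKO, 75.03 to 80.1 in HEMI and 74.98 to 82.8 in WT, and macrophage markers to 7.52 to 11.1 in VSKO, 6.38 to 12.3 in HEMI and 8.88 to 10.5 in WT. Some libraries stood apart in other markers: 4 erythroid markers summed to 109 and 325 in VSKO, 93.4 and 98.5 in HEMI, and 113 and 114 in WT. Summed skeletal muscle markers, 6 in number, were 8.32 and 14.7 in VSKO, 12.8 and 33.4 in HEMI, and 35.5 and 9.41 in WT. Their part in the results above was not tested.

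Likeness of profile was measured for the 3 genes with the widest range of group means, as the Euclidean distance over the 6 arrays after each gene was centred on its own mean, among 134 listed genes. Nearest to Tspan8 were Cyp17a1, which Leydig cells use to make androgens (distance 0.45), and Lhx8, a homeobox gene of early germ cells (0.72). Cyp17a1 read 3.86 and 4.15 in VSKO, 4.29 and 4.44 in HEMI, and 5.29 and 5.50 in WT, so both VSKO animals were lowest and both WT animals highest. It fell in VSKO, with VSKO minus WT at -1.40 ± 0.16 (adjusted p = 0.0423), a call lost when any 1 array was left out (-1.54 to -1.25, adjusted p = 0.0887 to 0.172). Lhx8 stood at -1.06 ± 0.14 for VSKO minus WT (adjusted p = 0.0521) and -0.51 ± 0.14 for HEMI minus WT (adjusted p = 0.270).

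Nearest to Zbtb16 were Foxc2, a forkhead factor found in a subset of stem cells (distance 0.27), and Lin28b, an RNA-binding protein that restrains let-7 (0.49). Foxc2 read -0.70 and -0.99 in VSKO, 0.085 and 0.35 in HEMI, and -0.73 and -0.15 in WT, with VSKO minus HEMI at -1.06 ± 0.24 (adjusted p = 0.268). Nearest to Sall4, as read by its 3′ probe, were Stk31, a germ cell kinase-like protein (0.24), and again Lin28b (0.28). The shared coding probe of Sall4, which puts HEMI with VSKO, was not compared in this way. Lin28b read -0.94 and -1.13 in VSKO, -0.30 and -0.16 in HEMI, and -0.32 and -0.26 in WT, with VSKO minus WT at -0.74 ± 0.13 (adjusted p = 0.0914), and Stk31 stood at -0.79 ± 0.15 in that comparison (adjusted p = 0.103). Another Lin28b probe, not well above background on either VSKO array, had HEMI minus WT at -0.44 ± 0.19, against 0.064 by the probe used. The profile of that other probe was not compared.

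**Figure D4:**
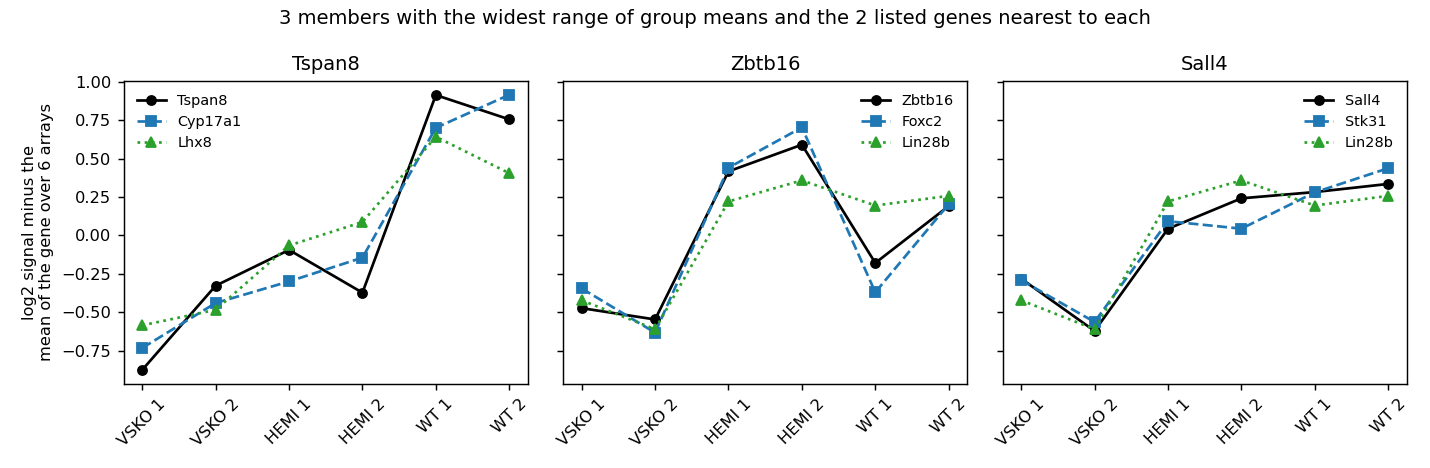
Log2 signal of Tspan8, Zbtb16 and Sall4 and of the 2 listed genes nearest to each, minus the mean of each gene over the 6 arrays (vertical axis), by array (horizontal axis, VSKO, HEMI and WT, 2 animals each). Tspan8 and Cyp17a1 are highest on the WT arrays, and Zbtb16 and Foxc2 on the HEMI arrays. Sall4 (by its 3′ probe), Stk31 and Lin28b are lowest on the VSKO arrays.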

How the data were processed

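RNA from whole newborn testes was labelled with Cy3 and hybridised to 6 Agilent 1-colour arrays, 1 per animal, and nothing was pooled. The deposited array files hold the processed signal, an intensity on a linear scale that was background-subtracted and detrended within its array, the mean and local background intensity of each spot, and flags of 0 or 1 for spots well above background, saturated or outlying, which say how usable a spot is rather than how bright (unit: other, per the file headers). The file headers give the Feature Extraction modules as version 10.7.3.1, while the submitters' processing notes name Agilent Feature Extraction 8.5.1.1. The intensity in the authors' series table was checked against the processed signal and is that signal over the median of its array.

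Outlier spots were left out, the log2 processed signal was shifted by the 75th percentile of each array (652.2 to 857.1), and spots of 1 probe were averaged. Probes had to be well above background in both animals of 1 group or more, which 34361 were. The probe with the highest mean stood for a gene, which gave 24567 genes. Names were updated through RefSeq accessions or symbols of assembly GRCm38.p6, for names only: of 55681 probes, 26762 matched by accession, 102 by another accession and 3751 by symbol, and 25066 kept the file's name. One limma model (version 3.58.1, R 4.3.3) held all 6 arrays (lmFit and eBayes, 1 mean per group, 3 residual and 2.25 prior degrees of freedom), with Benjamini-Hochberg adjustment over all genes. Rose, fell and passed mean an adjusted p under 0.05. The limma code was tested on simulated data. With 2 animals per group, the number of arrays limits the precision.

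The 10 genes and all gene lists were chosen with earlier results of these data known. The genes named are all 10, the listed paralogues, the passing and the most extreme genes of each list in each comparison, and the nearest profiles. Other genes are named as chosen after their values were seen. Replicate numbers in the labels do not say that animals of different groups were paired. Same-numbered animals did not deviate together (correlation across genes -0.037 for VSKO and HEMI, -0.027 for VSKO and WT and -0.0059 for HEMI and WT). Alternatives changed the background correction, scaling, dim probe filter, choice of probe, moderation, samples in the fit and replicate block, and left out each array.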

Additional observations from a re-analysis of the deposited data

How the results depend on the processing

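The 10 genes were refitted under 17 alternatives, which gave 666 differences. Of these, 631 kept their direction and their side of the threshold, 3 newly passed and 32 changed sign. The number of the 10 genes that passed between VSKO and WT was 1 (Tspan8) under normexp background correction, median scaling and intensity trend with robust moderation, and 0 under the other 14 (limma, with 3 to 5 genes at an unadjusted p under 0.05). It was 0 in the other comparisons under all alternatives run. The midpoint contrast has no fit of only the groups compared, and Elmo1 is lost where probes must be above background on all 6 arrays.

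Counts over all genes moved far more. For VSKO against WT (240) the count was 364 when scaled to the germ cell genes, 12 with no filter on dim probes, 386 with intensity trend and robust moderation, 42 with only the groups compared, and 0 to 69 without 1 array, the 0 being without WT replicate 1 or 2 (2622 and 2819 genes unadjusted). For HEMI against WT (29) it was 131 with normexp, 55 with median scaling, 19 when scaled to the germ cell genes, 0 with no filter (5281 unadjusted), 68 with probes above background on all 6 arrays, 171 with trend and robust moderation, 4 with only the groups compared, and 0 to 8 without 1 array (0 without HEMI replicate 2 or either WT array). For VSKO against HEMI (35) it was 17 with quantile scaling, 74 with median scaling, 5 with no filter, 15 above background on all 6, 61 with trend and robust moderation, 0 with only the groups compared (1742 unadjusted), and 0 to 41 without 1 array (0 without HEMI replicate 2 or either WT array). For HEMI against the midpoint (8) it was 2 with quantile scaling, 22 with median scaling, 4 when scaled to the germ cell genes, 2 with no filter, 1 above background on all 6, 22 with trend and robust moderation, and 0 to 9 without 1 array (0 without VSKO replicate 2, HEMI replicate 2 or either WT array). Fewer samples were in the fit without an array or with only the groups compared, and more genes were tested with no filter; for the rest the cause was not tested.

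With the replicate block, where replicate numbers 1 and 2 enter as a factor, limma called 19 genes for VSKO against WT, 0 for HEMI against WT (2796 unadjusted), 0 for VSKO against HEMI (1872 unadjusted) and 0 for the midpoint (2008 unadjusted), and 0 of the 10 genes in each, so it changed no call among them. The numbers were not shown to pair the animals, and none of the calls lost this way is read as a weaker effect.

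Scaling to the germ cell genes shifts every difference up by 0.45 against WT and hardly at all for VSKO minus HEMI (mean germ cell differences of -0.45 for VSKO minus WT, -0.45 for HEMI minus WT and 0.0049 for VSKO minus HEMI). Of the 240 genes 85 were higher and 155 lower, and of the 364 under that scaling 293 were higher and 71 lower; of the 29, 8 were higher and 21 lower, and of the 19, 11 and 8. Of the 35, 25 were higher and 10 lower, and for the midpoint 4 of 8 were higher, against 4 of 4 under that scaling and 2 of 2 with quantile scaling. It turned the sign of Sohlh1 (0.31) and Sohlh2 (0.40) for VSKO minus WT, of Sall4 (0.28), Sohlh1 (0.10) and Sohlh2 (0.33) for HEMI minus WT, and of Id4 (0.037) and Sohlh2 (0.13) against the midpoint. Normexp turned Elmo1 to -0.049 for VSKO minus WT and -0.0039 for HEMI minus WT, the mean of both probes turned Foxo1 to -0.034 for VSKO minus WT, and median scaling turned Etv5 to -0.014 for VSKO minus HEMI. None of these passed in either setting.

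Leaving out 1 array in turn turned the sign of small differences only. For VSKO minus WT the ranges were -0.023 to 0.42 for Etv5, -0.069 to 0.15 for Foxo1, -0.22 to 0.13 for Sohlh2 and -0.26 to 0.37 for Elmo1. For HEMI minus WT they were -0.00057 to 0.14 for Foxo1, -0.051 to 0.31 for Id4 and -0.093 to 0.54 for Elmo1. For VSKO minus HEMI they were -0.17 to 0.28 for Etv5, -0.035 to 0.33 for Bcl6b, -0.14 to 0.083 for Foxo1, -0.093 to 0.25 for Sohlh2 and -0.43 to 0.083 for Elmo1. Against the midpoint they were -0.069 to 0.15 for Etv5 and -0.021 to 0.12 for Foxo1. The listed genes that passed (Sall1, Lhx1, Nanos2 and Cyp17a1) were refitted as well, an addition made after seeing the data, and none passed without any 1 array.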

Other observations

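Some listed genes close in role to the 10 were chosen for mention after their values were seen. Pou3f1, a POU factor that GDNF induces in cultured stem cells, read 0.57 and 0.70 in VSKO, 0.17 and 0.67 in HEMI, and -0.47 and -0.24 in WT, with VSKO minus WT at 0.99 ± 0.21 (SE, n = 2 per group, limma adjusted p = 0.124) and HEMI minus WT at 0.77 ± 0.21 (adjusted p = 0.250). All 4 VSKO and HEMI animals lay above both WT animals, as they did for Bcl6b and Etv4. Neurog3, a helix-loop-helix factor of spermatogonia that are leaving the stem cell state, read -2.85 and -2.96 in VSKO, -2.78 and -2.34 in HEMI, and -1.88 and -1.93 in WT, with VSKO minus WT at -0.99 ± 0.18 (adjusted p = 0.0938). Upp1, a uridine phosphorylase seen as spermatogonia differentiate, read -1.59 and -1.48 in VSKO, -1.59 and -1.31 in HEMI, and -0.72 and -0.83 in WT, with VSKO minus WT at -0.76 ± 0.15 (adjusted p = 0.112). None of the 3 passed, and for Neurog3 and Upp1 all VSKO and HEMI animals lay below both WT animals, as for Tspan8. Kit, the receptor that marks differentiating spermatogonia, stood at 0.031 ± 0.31 for VSKO minus WT (adjusted p = 0.974).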
